A study of Homo sapiens with 6 samples.

Results

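A set of 8 genes that neurons use was followed through RNA sequencing of HEK293 cells, a long-established line from human embryonic kidney: the 4 filament subunits NEFL, NEFM, NEFH and INA, the vesicle protein SYT1, the secreted protein NELL2, the receptor TACR3 and the microtubule regulator STMN2. They are 8 of the 57773 genes in the table, taken by gene symbol. The set was chosen with differences between the libraries labelled TRDMT1 knockdown and the libraries labelled control in view, so its own values are given as a description, with no test. The study set 3 libraries of HEK293 cells labelled TRDMT1 gene knockdown beside 3 libraries of HEK293 cells labelled control, to ask what the enzyme does in this line. TRDMT1, also called DNMT2, methylates cytosine in certain tRNAs. The means of knockdown, and whether replicates were grown as separate cultures, are not given in the sources used here. P-values therefore measure no more than how these libraries vary, and that variation may be technical.

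Neurofilaments are the intermediate filaments of axons. NEFL, the light subunit, forms the core of the filament, while NEFM and NEFH, the medium and heavy subunits, carry long tails that project from it, and INA (alpha-internexin) can replace or accompany them. SYT1 is the calcium sensor that triggers fusion of synaptic vesicles, NELL2 is a secreted glycoprotein and a ligand of ROBO3 in axon guidance, TACR3 is the receptor for neurokinin B, a tachykinin peptide, and STMN2 binds tubulin in growing axons. Neurofilament protein in HEK293 cells is a long-standing observation about this line.

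Start regions are shown for 3 of the 8 genes, those matched in the RefSeq promoter table (build GRCh38.p14): SYT1 and TACR3, which differed widely between the labelled groups, and INA, which did not. Each covers 250 bases before to 50 bases after the annotated start, on the strand of the gene. Capitals mark every match, on either strand, to the motifs searched: the TATA box TATAAA, the SP1 box GGGCGG, the cyclic AMP response element TGACGTCA, its shorter core TGACG, which lies within it, the first E-box CAGCTG, and another E-box, CACGTG. For the RE1 element, which the neuronal repressor REST binds, the parts searched were TTCAGCACC on one side, GGACAGCGC on the other, and the shorter CAGCACC, which lies within the first.

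SYT1 (chr12:78864524-78864823, plus strand): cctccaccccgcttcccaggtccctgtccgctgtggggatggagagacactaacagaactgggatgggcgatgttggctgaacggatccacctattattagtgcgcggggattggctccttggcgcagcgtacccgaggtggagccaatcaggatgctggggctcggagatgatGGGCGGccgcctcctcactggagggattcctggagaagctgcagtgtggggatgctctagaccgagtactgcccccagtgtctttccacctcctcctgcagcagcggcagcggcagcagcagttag

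TACR3 (chr4:103719936-103720235, minus strand): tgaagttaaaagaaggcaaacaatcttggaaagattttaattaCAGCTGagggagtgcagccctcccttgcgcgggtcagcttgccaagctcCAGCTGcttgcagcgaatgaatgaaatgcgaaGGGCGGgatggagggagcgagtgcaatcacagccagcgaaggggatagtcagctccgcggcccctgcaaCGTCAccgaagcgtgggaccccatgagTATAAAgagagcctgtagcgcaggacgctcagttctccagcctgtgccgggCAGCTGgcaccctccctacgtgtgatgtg

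INA (chr10:103276888-103277187, plus strand): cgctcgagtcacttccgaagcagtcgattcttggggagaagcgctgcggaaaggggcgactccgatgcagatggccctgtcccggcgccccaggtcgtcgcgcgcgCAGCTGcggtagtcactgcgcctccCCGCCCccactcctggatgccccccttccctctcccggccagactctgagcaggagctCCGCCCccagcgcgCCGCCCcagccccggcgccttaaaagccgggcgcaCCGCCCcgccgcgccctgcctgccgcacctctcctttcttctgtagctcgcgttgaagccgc

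The 3 windows differed in their letters. TACR3 held a TATAAA box beginning 30 bases before the start, a motif found in 11.5% of all 35116 windows of this length, together with 3 copies of CAGCTG, found in 18.0%. CAGCTG was also in INA, once. INA held GGGCGG 4 times on its minus strand, and SYT1 and TACR3 each held it once on the plus strand. GGGCGG was in 45.0% of all windows. The GC content was 71.3% for INA, 62.0% for SYT1 and 57.0% for TACR3. None of the RE1 parts was in these 3 windows. TTCAGCACC was in 0.376% of all windows, GGACAGCGC in 0.581% and CAGCACC in 7.75%. CACGTG was in 7.26%, TGACGTCA in 1.85% and TGACG in 24.6%, and of these the 3 windows held only TGACG, once, in TACR3.

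Each library held 24776040 to 40088993 counts. The check of the targeted gene went against the labels: TRDMT1 stood at 0.58 RPKM (read count per exonic length and library size) in each of the 3 libraries labelled knockdown and at 0.36, 0.36 and 0.28 RPKM in the libraries labelled control. Its log2 fold change was 0.61 ± 0.21 (standard error) (adjusted p = 0.0705, edgeR), and 0.79 without control replicate 2 (adjusted p = 0.00249, edgeR). The second sample names in the labels also read the other way round from the titles. Every direction given here is therefore between libraries as labelled. Control replicate 2 stood apart from the other 5 libraries, with a TMM scaling factor of 0.812 against 0.997 to 1.07. The median log2 fold change of all genes was −0.04 after TMM scaling and 0.13 on the plain library total, on which RPKM rest.

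The neurofilament core subunit NEFL was the most abundant of the 8 messages in both groups. NEFL (ENSG00000104725, chromosome 8) stood at 49.9, 54.0 and 55.2 RPKM in the libraries labelled knockdown and at 53.1, 36.3 and 60.3 RPKM in the libraries labelled control. The groups overlapped, with control replicate 2 lowest and control replicate 3 highest. The means were 53.0 ± 2.80 and 49.9 ± 12.3 RPKM (SD, n = 3 each). The log2 fold change of NEFL was −0.07 after TMM scaling and 0.09 on the plain library total, so its direction depends on the scaling.

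NEFM, the medium subunit, stood at 14.2, 13.6 and 13.7 RPKM in the libraries labelled knockdown and at 22.4, 10.6 and 26.0 RPKM in the libraries labelled control. In RPKM the groups overlapped through control replicate 2 alone, which lay below every library labelled knockdown. After TMM scaling that library, at 57.1 CPM, lay within the range of the libraries labelled knockdown, 56.2 to 58.7 CPM. NEFM (ENSG00000104722, chromosome 8) had means of 13.9 ± 0.31 and 19.7 ± 8.04 RPKM (SD, n = 3 each), 1.42-fold lower in the libraries labelled knockdown, and 1.75-fold lower without control replicate 2. An antisense gene, AF106564.1, overlaps NEFM and had 79 to 90 counts in the libraries labelled knockdown and 25 to 34 in those labelled control, against at least 1149 counts for NEFM in each library. The strand setting of the counting was not given in the labels, so how reads in the stretch shared by NEFM and AF106564.1 were assigned is not known.

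NEFH, the heavy subunit, was the one filament member with widely separated groups. Read counts of NEFH (ENSG00000100285, chromosome 22) were 438, 459 and 469 under the knockdown label and 40, 26 and 52 under the control label. In RPKM these were 3.18, 3.30 and 3.09 against 0.40, 0.28 and 0.51. The groups were far apart, with no library between 0.51 and 3.09 RPKM. The means were 3.19 ± 0.11 and 0.40 ± 0.12 RPKM (SD, n = 3 each), an 8.04-fold higher level under the knockdown label, and 7.01-fold higher without control replicate 2. CPM here is the scaled share of a library's plain total counts, without the TMM factor. By it the lowest library labelled knockdown had 11.7 (95% Wilson interval 10.7 to 12.8) and the highest library labelled control 1.94 (1.48 to 2.54).

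INA, alpha-internexin, was steady in 5 of the 6 libraries. INA (ENSG00000148798, chromosome 10) stood at 19.1, 19.3 and 19.1 RPKM in the libraries labelled knockdown and at 17.5, 6.52 and 18.9 RPKM in the libraries labelled control. Control replicate 2 was low, and the other 5 libraries lay between 17.5 and 19.3 RPKM. The means were 19.2 ± 0.14 and 14.3 ± 6.78 RPKM (SD, n = 3 each), a ratio of 1.34, which was 1.05 without control replicate 2. The groups did not overlap in RPKM but did after TMM scaling.

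**Figure D1:**
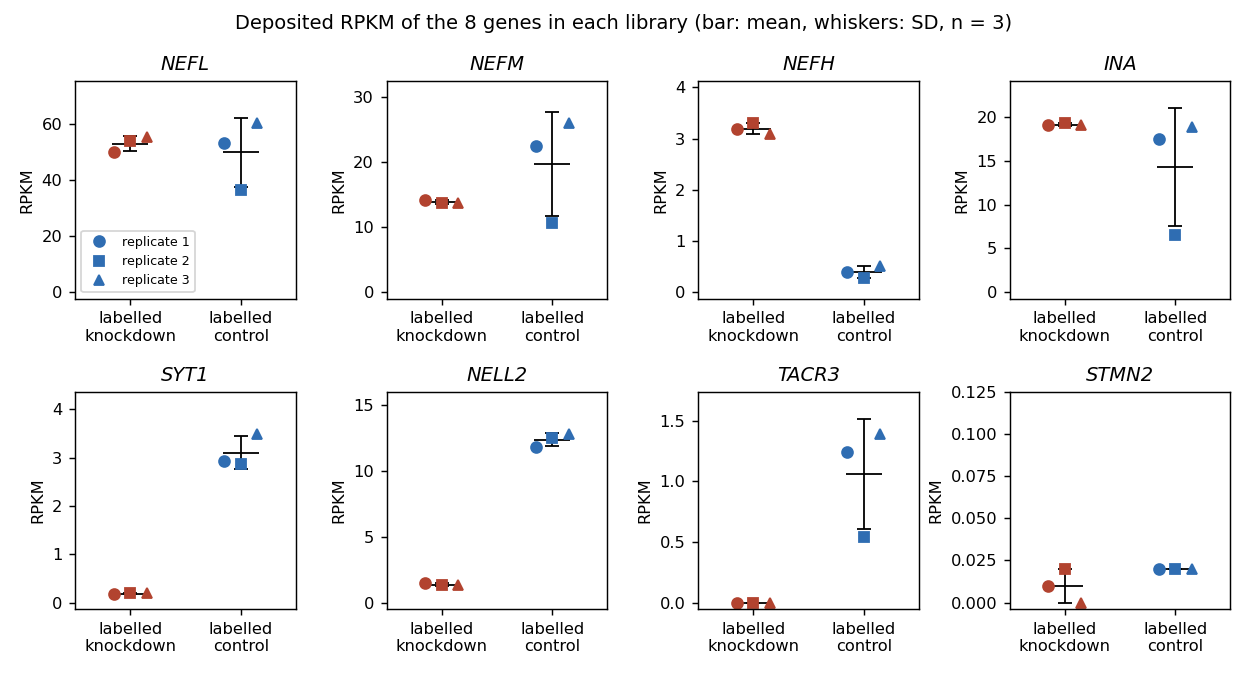
Deposited RPKM (vertical axes, a separate linear scale for each gene) in the 3 libraries labelled knockdown and the 3 labelled control, with points for libraries, marker shapes for replicate numbers, and bars with whiskers for mean and SD. NEFH is higher and SYT1, NELL2 and TACR3 are lower in every library labelled knockdown, control replicate 2 is the lowest point for NEFL, NEFM and INA, and STMN2 stays at or under 0.02 RPKM.

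The summed level of the 4 filament subunits overlapped between the groups, while the shares of NEFH, NEFM and INA in it did not. The sum was 86.4, 90.2 and 91.1 RPKM in the libraries labelled knockdown and 93.3, 53.7 and 105.7 RPKM in those labelled control. NEFL made up 57.8% to 60.6% of the sum in the libraries labelled knockdown and 56.9% to 67.6% in those labelled control. NEFH made up 3.58% ± 0.16 against 0.48% ± 0.05 (SD, n = 3 each). NEFM made up 15.1% to 16.5% in the libraries labelled knockdown and 19.7% to 24.6% in those labelled control, and did not overlap between the groups, control replicate 2 included. These shares come from the values that chose the set and carry no test.

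**Figure D2:**
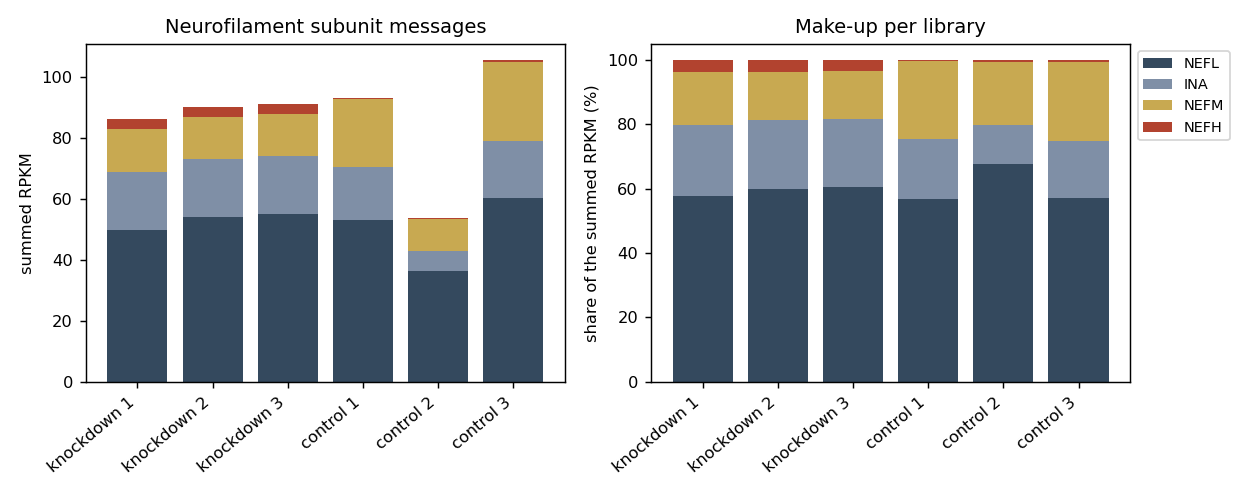
Summed RPKM of NEFL, INA, NEFM and NEFH in each of the 6 libraries (left, RPKM) and the share of each subunit in that sum (right, percent). The sum is lowest in control replicate 2 at 53.7 RPKM, and the NEFH share is 3.39% to 3.68% in the libraries labelled knockdown against 0.43% to 0.52% in those labelled control.

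SYT1, the calcium sensor of vesicle fusion, was far lower in the libraries labelled knockdown. Read counts of SYT1 (ENSG00000067715, chromosome 12) were 40, 46 and 50 there and 503, 462 and 608 under the control label. In RPKM these were 0.17, 0.19 and 0.19 against 2.93, 2.87 and 3.49. No library labelled knockdown came near any labelled control, and control replicate 2 sat with its group. The means were 0.18 ± 0.01 and 3.10 ± 0.34 RPKM (SD, n = 3 each), 16.9-fold lower in the libraries labelled knockdown.

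NELL2, the secreted guidance ligand, was read 344, 310 and 347 times under the knockdown label and 2009, 1989 and 2205 times under the control label. NELL2 (ENSG00000184613, chromosome 12) stood at 1.47, 1.31 and 1.35 RPKM against 11.8, 12.5 and 12.8 RPKM. In RPKM the libraries within each group lay close together, with a coefficient of variation of 6.05% among those labelled knockdown and 4.09% among those labelled control. After TMM scaling the libraries labelled control lay further apart, at 76.2, 98.9 and 80.1 CPM, with control replicate 2 highest. The ratio of the means was 8.99, with NELL2 lower in the libraries labelled knockdown.

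TACR3, the neurokinin B receptor, had no count in any library labelled knockdown. Read counts of TACR3 (ENSG00000169836, chromosome 4) were 0, 0 and 0 there and 170, 69 and 194 under the control label, or 1.24, 0.54 and 1.39 RPKM. A count of 0 allows up to 3 counts, which is 0.0823, 0.0817 and 0.0748 CPM in the 3 libraries labelled knockdown. Against that floor in each library, the mean of the libraries labelled control makes TACR3 at least 68.9-fold lower in the libraries labelled knockdown, and the lowest of them, control replicate 2, at least 35.2-fold lower. In bulk RNA, fewer cells that express a gene and less of its RNA per cell cannot be told apart.

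STMN2, the growth cone tubulin regulator, was near 0 throughout. Read counts of STMN2 (ENSG00000104435, chromosome 8) were 1, 2 and 0 under the knockdown label and 1, 1 and 1 under the control label. A difference was not detectable at this depth, and no fold is given. It alone of the 8 did not pass the filter on low counts, which 7 passed. TACR3 passed through the libraries labelled control only.

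Of the 8 members, 4 had groups that did not overlap after TMM scaling, NEFH higher and SYT1, NELL2 and TACR3 lower, beside 49.9% of all 17805 genes tested, 23.9% higher and 26.0% lower. In RPKM, where INA joined them, the share of all genes was 50.5%. Differences of at least 8-fold were fitted for 0.629% of all genes and of at least 4-fold for 2.7%. These shares rest on the fit after TMM scaling, while the folds of members above are ratios of mean RPKM. NEFH, 8.04-fold in RPKM, had a fitted log2 fold change of 2.85, which is under 8-fold. The set was chosen on this contrast, so nothing is read from these counts.

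Ranked by RPKM, which is per length, NEFL led in every library, and the order below it differed between the groups. The order given is that of group means. In control replicate 2, NELL2 (12.5) lay above NEFM (10.6) and INA (6.52). In the libraries labelled knockdown the order was NEFL, INA, NEFM, NEFH, NELL2 and SYT1, with no overlap between the ranges of neighbours, followed by STMN2 and TACR3, which overlapped. In the libraries labelled control NEFL (36.3 to 60.3 RPKM) led NEFM (10.6 to 26.0), INA (6.52 to 18.9) and NELL2 (11.8 to 12.8), and the ranges of NEFM, INA and NELL2 all overlapped one another. SYT1, TACR3, NEFH and STMN2 followed in that order without overlap. NEFH thus had rank 4 under the knockdown label and rank 7 under the control label.

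Within the libraries labelled control, the members moved with control replicate 2 to different degrees. INA was 2.68 and 2.90 times as high in control replicates 1 and 3 as in control replicate 2, TACR3 2.30 and 2.57 times, NEFM 2.11 and 2.45 times, NEFH 1.43 and 1.82 times and NEFL 1.46 and 1.66 times, all in RPKM. SYT1 stood at 1.02 and 1.22 times and NELL2 at 0.946 and 1.02 times. These ratios rest on the plain library total, and TMM scaling raised control replicate 2. After it, NELL2 was at 98.9 CPM in control replicate 2 and at 76.2 and 80.1 in control replicates 1 and 3. SYT1 was at 23.0 against 19.1 and 22.1, and NEFL at 182.5 against 217.4 and 239.7. INA, TACR3, NEFM and NEFH, like NEFL, stayed lowest in control replicate 2. In RPKM the differences of SYT1 and NELL2 between the groups stood at 17.5-fold and 8.95-fold without control replicate 2, beside 16.9-fold and 8.99-fold with it.

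Genes with the closest profiles over the 6 libraries were sought for the 3 most abundant members among 11151 other protein-coding genes whose mean level reached 1 RPKM. Closeness was the Euclidean distance between log2 CPM after TMM scaling, each centred on its mean. EPC2 (0.0573) and SCFD2 (0.0845) lay close to NEFL. CCSER2 (0.0863), LDLRAD4 (0.0943) and SLMAP (0.0948) lay closest to NEFM, and KIF1C (0.0951), ZFR (0.0974) and PRR11 (0.0981) to INA. These 8 genes, like NEFL, NEFM and INA, had their lowest RPKM in control replicate 2, which follows from choosing them by these same profiles. For example, the kinesin gene KIF1C stood at 25.8, 25.8 and 26.1 RPKM in the libraries labelled knockdown and at 25.0, 8.55 and 25.9 RPKM in those labelled control.

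Of 14 genes beside the members, 2 were called, both lower, where 24.0% of all genes were called and 14.7% called lower. NEFH lies between AP1B1, at 49.2 ± 1.87 and 31.7 ± 14.1 RPKM, and THOC5, at 9.39 ± 0.33 and 9.14 ± 0.57 RPKM (SD, n = 3 each), and neither was called by edgeR (adjusted p = 0.214 and 0.411). SYT1 lies between NAV3 and PAWR (log2 fold changes −0.29 ± 0.28 and −0.24 ± 0.23, adjusted p = 0.479 and 0.481, edgeR). NELL2 lies between TMEM117 and ANO6 (−0.39 ± 0.16 and 0.36 ± 0.13, adjusted p = 0.107 and 0.0847, edgeR). TACR3 lies between CXXC4 (−0.34 ± 0.28, adjusted p = 0.393, edgeR) and CENPE, a kinetochore motor, which fell from 7.73 ± 3.30 to 0.49 ± 0.05 RPKM (SD, n = 3 each). NEFL and NEFM are neighbours of each other, with STC1 and DOCK5 on their outer sides. STC1 had a log2 fold change of −0.19 ± 0.31 and DOCK5 of −0.02 ± 0.16 (adjusted p = 0.678 and 0.922, edgeR). INA lies between NT5C2 and PCGF6, neither called (adjusted p = 0.429 and 0.140, edgeR), and STMN2 between ZC2HC1A, which fell (−0.88 ± 0.24, adjusted p = 0.0356, edgeR), and HEY1 (−0.13 ± 0.19, adjusted p = 0.639). Without control replicate 2, ANO6 (0.27) and AP1B1 (0.24) were called higher and CXXC4 (−0.59), PAWR (−0.43) and PCGF6 (−0.43) lower (adjusted p = 0.0167, 0.0245, 0.00977, 0.0366 and 0.0115, edgeR), in a fit that called 48.5% of all genes. Neighbours are the nearest tested protein-coding genes in the order of GENCODE release 29.

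Base composition moved with the fold changes of all genes, and the members spanned it. The median log2 fold change was −0.65 in the decile of genes with the lowest GC content and 0.30 in the decile with the highest. TACR3 (36.7% GC) lay in that lowest decile. SYT1 (41.6% GC) lay in decile 3, whose median was −0.21, NELL2 (46.2%) in decile 5, at −0.01, and NEFH (57.8%) in decile 8, at 0.15. In deciles of A content the median ran from 0.265 in the lowest to −0.844 in the highest, which held TACR3. SYT1 and NEFM lay in A decile 9, at −0.404, NEFH in A decile 8, at −0.175, and NELL2 in A decile 6, at −0.025. The medians beside NEFH thus had opposite signs by GC and by A content. The fitted log2 fold changes of SYT1, NELL2 and NEFH were −4.24 ± 0.17, −3.35 ± 0.16 and 2.85 ± 0.19 (standard error), and with trends of base composition and length removed they were −3.85, −3.49 and 2.85. NEFM (54.0% GC) moved from −0.64 to −0.43. The standard errors describe the fit and are no test of the members, which were chosen on this contrast.

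**Figure D3:**
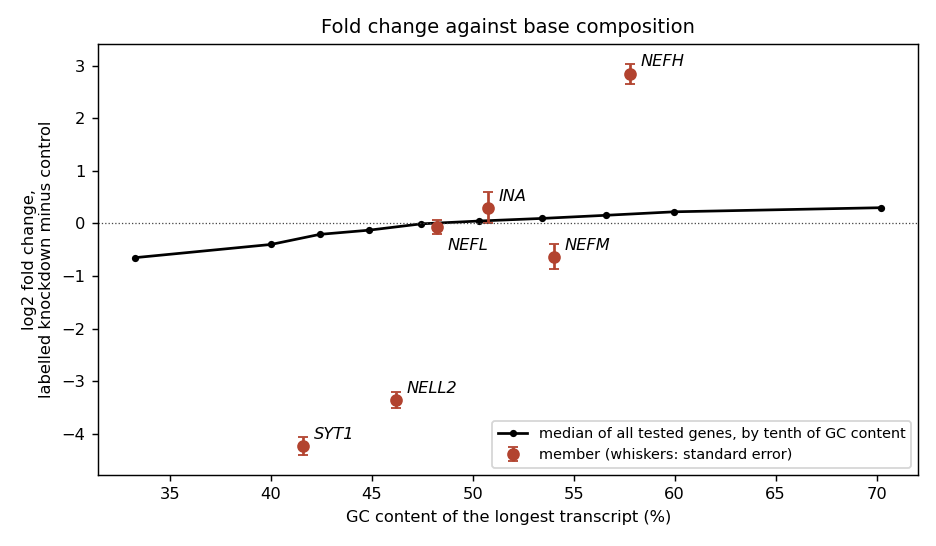
Log2 fold change, labelled knockdown minus control (vertical axis), against GC content of the longest transcript in percent (horizontal axis). The black line joins medians of all tested genes in deciles of GC content, from −0.65 to 0.30, and red points with standard errors are 6 members, of which NEFH (2.85), NELL2 (−3.35) and SYT1 (−4.24) lie far from the line. The standard errors are no test of the members, which were chosen on this contrast. TACR3 and STMN2 are not drawn, since one had no counts in a group and the other was near 0 throughout.

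Beyond the members, 218 genes of neurons and of the same families were counted in 8 lists, of which 177 were tested. Of these, 22 rose and 17 fell in the libraries labelled knockdown at an adjusted p under 0.05 (edgeR), 22.0% of those tested beside 24.0% of all genes. The share of this list was thus near that of all genes. Of all genes, 9.29% rose and 14.7% fell by edgeR, and 32.4% were called by DESeq2 and 14.6% by limma-trend on log2(RPKM + 1). The list's median log2 fold change was 0.04, beside −0.04 over all genes. Without control replicate 2 the counts were 52 higher and 42 lower of 180 tested, beside 48.5% of all genes.

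**Figure D4:**
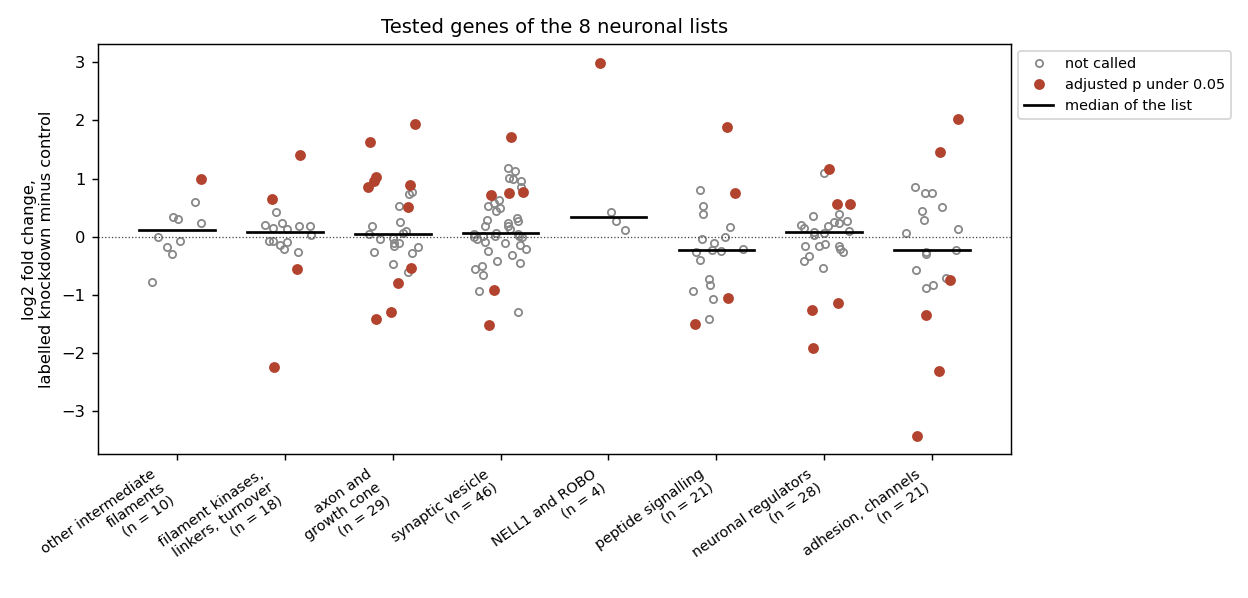
Log2 fold change, labelled knockdown minus control (vertical axis), of the 177 tested genes in 8 lists of neuronal and related genes (horizontal axis), with filled red points for genes at an adjusted p under 0.05 by edgeR, open points for the others and black bars for list medians. Medians lie between −0.23 and 0.35, and called genes lie on both sides of 0 in 6 of the lists.

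Of 10 other intermediate filament genes tested, 1 rose and 0 fell (median 0.12), where 24.0% of all genes were called. Without control replicate 2 the number called was 6, beside 48.5% of all genes. Vimentin, VIM, the most abundant of them, stood at 227, 231 and 232 RPKM in the libraries labelled knockdown and 291, 456 and 263 RPKM in those labelled control (−0.77 ± 0.32, adjusted p = 0.117, edgeR). Nestin, NES, of neural progenitors, had a log2 fold change of 0.60 ± 0.31 (standard error, adjusted p = 0.202, edgeR). Peripherin, PRPH, of peripheral neurons, had a log2 fold change of −0.29 ± 0.33 (adjusted p = 0.540, edgeR). The nuclear lamins LMNA, LMNB1 and LMNB2 had adjusted p of 0.439, 0.499 and 0.169, and GFAP, SYNM and BFSP1 of 0.995, 0.936 and 0.445 (edgeR). The 6 called without that library were DES (1.10, adjusted p = 0.0135, edgeR) and 5 more. VIM (−0.34) and LMNB1 (−0.34) were called lower and NES (0.29), LMNB2 (0.21) and BFSP1 (0.68) higher (adjusted p = 0.00878, 0.00947, 0.0265, 0.0358 and 0.00529, edgeR). Desmin, DES, rose from 0.20 ± 0.02 to 0.45 ± 0.06 RPKM (SD, n = 3 each, adjusted p = 0.0355, edgeR), a call that ended with no filter on low counts, with the replicate block and with composition trends removed.

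Among 18 kinases, phosphatases, linkers and turnover factors of neurofilaments, 2 rose and 2 fell (median 0.08), 22.2% called beside 24.0% of all genes. CDK5R2, a neuronal activator of the kinase CDK5, which phosphorylates filament tails, rose (1.41 ± 0.20, adjusted p = 0.00444, edgeR), from 0.45 ± 0.10 to 1.33 ± 0.11 RPKM. The kinase MAPK3 (ERK1) rose from 12.2 ± 1.91 to 21.4 ± 0.99 RPKM. DST, dystonin, a linker between filaments and other cytoskeleton, fell from 4.02 ± 1.48 to 0.95 ± 0.05 RPKM (−2.24 ± 0.21, adjusted p = 0.000965, edgeR). PPP2CA, a phosphatase catalytic subunit, fell (−0.55 ± 0.13). Its call ended on the plain library total, with no filter on low counts, with limma-trend on RPKM and with the replicate block.

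Of 29 tested axon and growth cone genes, 7 rose and 4 fell (median 0.05), 37.9% called beside 24.0% of all genes, a difference that was not tested. STMN3, a relative of STMN2, rose from 14.2 ± 2.20 to 32.4 ± 1.06 RPKM (SD, n = 3 each), with a log2 fold change of 1.02 ± 0.11 and an adjusted p of 0.00158 (edgeR). The collapsin response mediator DPYSL4 (1.94 ± 0.20) and the neuronal tubulin TUBB3 (1.63 ± 0.22) rose as well. TUBB3 stood at only 1.15 ± 0.06 against 0.33 ± 0.11 RPKM and shares its symbol with a second row, so its count is uncertain. GAP43, the growth-associated protein, fell from 4.03 ± 1.57 to 1.81 ± 0.05 RPKM (−1.30 ± 0.24, adjusted p = 0.0114, edgeR), and KIF5A (−0.79 ± 0.20) and KLC1 (−0.53 ± 0.11), parts of the kinesin-1 motor, fell too. The calls of KIF5A and KLC1 ended on the plain library total, and those of GAP43, KIF5A and KLC1 with limma-trend on RPKM. That of KLC1 also ended with no filter on low counts and with the replicate block.

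Of 46 tested vesicle genes, 4 rose and 2 fell (median 0.06), 13.0% called beside 24.0% of all genes, a difference that was not tested. UNC13B, a vesicle priming factor, rose from 7.73 ± 1.01 to 14.8 ± 0.94 RPKM (adjusted p = 0.0140, edgeR). Of 11 tested synaptotagmins other than SYT1, a subset taken after its values were seen, SYT12 and SYT13 rose and SYT11 fell, and their log2 fold changes ran from −0.94 to 1.71. SYT11 stood at 1.99 ± 0.13 against 3.30 ± 0.37 RPKM (−0.92 ± 0.17, adjusted p = 0.0110, edgeR). SNAP25, the SNARE partner of SYT1, stood at 1.76, 1.35 and 1.52 RPKM in the libraries labelled knockdown and at 0.33, 1.88 and 0.64 in those labelled control, with overlapping groups (adjusted p = 0.639, edgeR). Without control replicate 2, SNAP25 (1.60), SYT7 (0.85) and SYT9 (0.43) were called higher and SYT14 (−0.88) lower (adjusted p = 0.00071, 0.000736, 0.00937 and 0.00253, edgeR).

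Receptors and a relative of NELL2 were low or not called. ROBO3, its known receptor, stood at 1.87 ± 0.10 against 1.21 ± 0.14 RPKM (0.43 ± 0.20, adjusted p = 0.153, edgeR), and was called higher without control replicate 2 (0.65, adjusted p = 0.00152, edgeR). ROBO1 stood at 9.52 ± 0.46 against 8.05 ± 4.36 RPKM (adjusted p = 0.807). ROBO2 rose, 2.99 ± 0.27 on the log2 scale (adjusted p = 0.000809, edgeR), at a level of only 0.15 ± 0.01 against 0.02 ± 0.01 RPKM (SD, n = 3 each). NELL1, the paralog, stood at 0.06 ± 0.02 and 0.05 ± 0.01 RPKM (adjusted p = 0.691).

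Of the tachykinin precursors, TAC1 was the one above 1 RPKM. TAC1, the precursor of substance P and neurokinin A, stood at 1.90, 2.54 and 2.09 RPKM in the libraries labelled knockdown and 7.10, 4.66 and 4.70 RPKM in those labelled control. It fell by 1.51 ± 0.22 on the log2 scale (adjusted p = 0.00500, edgeR), and the groups did not overlap. TAC3, which encodes neurokinin B itself, lay between 0.07 and 0.36 RPKM in all 6 libraries, and the receptors TACR1 and TACR2 at or under 0.09 RPKM, and none of these 3 passed the filter. Of 21 tested genes of peptide signalling, 2 rose and 2 fell (median −0.23), 19.05% called beside 24.0% of all genes. KISS1R, the kisspeptin receptor (1.89 ± 0.26), and PLCB3 (0.74 ± 0.17) rose, and PLCB4 (−1.05 ± 0.14) fell. PLCB3 and PLCB4 are phospholipases downstream of Gq-coupled receptors such as TACR3, and both calls ended with composition trends removed. That of PLCB3 also ended with limma-trend on log2(RPKM + 0.1).

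Of 28 tested neuronal regulators, 3 rose and 3 fell (median 0.07), 21.4% called beside 24.0% of all genes. REST, the repressor of neuronal genes outside neurons, stood at 4.58 ± 0.30 against 4.65 ± 1.80 RPKM (SD, n = 3 each, −0.16 ± 0.22, adjusted p = 0.623, edgeR), and was called lower without control replicate 2 (−0.37, adjusted p = 0.0131, edgeR). INSM1, a zinc finger factor of neuroendocrine cells, rose from 1.69 ± 0.40 to 4.31 ± 0.19 RPKM (adjusted p = 0.0168, edgeR). SOX4 (0.56 ± 0.14) and GATA3 (0.56 ± 0.14) rose too. Both calls ended on the plain library total, with limma-trend on RPKM and with the replicate block. That of GATA3 also ended with composition trends removed. PTBP2, a neuronal splicing repressor, fell from 1.65 ± 0.06 to 0.49 ± 0.03 RPKM (−1.92 ± 0.15, adjusted p = 0.000526, edgeR). HDAC2, a deacetylase of REST complexes, fell from 35.4 ± 2.14 to 18.2 ± 0.56 RPKM, a call that ended with composition trends removed. CELF4, a neuronal RNA-binding protein under 0.30 RPKM, was the third that fell.

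Of 21 tested adhesion molecules and channels, 2 rose and 4 fell (median −0.23), 28.6% called beside 24.0% of all genes. CNTN1, the axonal adhesion protein contactin, stood at 0.19, 0.21 and 0.19 RPKM in the libraries labelled knockdown and 2.06, 0.93 and 2.87 RPKM in those labelled control. It fell by 3.42 ± 0.35 on the log2 scale (adjusted p = 0.00137, edgeR), with groups that did not overlap. CNTNAP2, a contactin-associated protein, fell (−0.75 ± 0.16), a call that ended on the plain library total and with limma-trend on RPKM. The others called were all under 0.70 RPKM: the neurexin NRXN2 and the glutamate receptor subunit GRIN1 rose, and GRIN2B and the synaptic protein LRRTM2 fell.

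Part of the usual marker set of neurons was present. Of 17 neuron markers, 11 reached 1 RPKM in at least 1 library and 5 reached it in all 6. Another 5 were under 0.1 RPKM in all 6, namely STMN2, SYP, ELAVL3, ELAVL4 and DCX, the last with 0.00 RPKM in each. The members NEFL, NEFM, NEFH, INA, SYT1 and STMN2 are among these markers, so the counts are not independent of the set. NEFH, MAPT and TUBB3 reached 1 RPKM only under the knockdown label, and SYT1 only under the control label. Levels of kidney and epithelial markers (11 genes, of which 10 reached 1 RPKM) summed to 393 to 409 RPKM in the libraries labelled knockdown and 343 to 507 RPKM in those labelled control, with OSR1 called higher and EPCAM lower of 10 tested. Glial markers summed to 7.15 to 7.66 against 5.07 to 6.94 RPKM, with 1 called higher and 1 lower of 5 tested. Fibroblast markers summed to 4.74 to 5.16 against 1.56 to 6.08 RPKM, with COL1A2 called higher and LUM lower of 4 tested. COL1A2, a collagen chain, stood at 0.39, 0.34 and 0.40 RPKM in the libraries labelled knockdown and was listed at 0.00 in each labelled control. Blood and endothelial markers summed to at most 0.09 RPKM, with none called of 1 tested (VWF, adjusted p = 0.452, edgeR). Their part in the members' values was not tested. These small counts of called markers stand beside 24.0% of all genes called.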

How the data were processed

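Total RNA of 6 HEK293 libraries was measured. Per the labels' protocols, RNA was depleted of ribosomal RNA, treated with an RNA methylation kit and made into stranded libraries, with no statement of whether the table comes from treated RNA. The authors deposited raw counts per gene, and RPKM that equal the count per exonic length and library total (within 0.006 for 100% of values). Per the submitters' processing notes, HTSeq 0.6.1, edgeR 3.4.6, DESeq2 1.6.3 and build hg19 were among the tools used, with no role stated.

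Counts as deposited were fitted with edgeR 4.0.16 (R 4.3.3) by the quasi-likelihood test with TMM and filterByExpr, tested on simulated data, over 17805 genes, with Benjamini-Hochberg adjustment and a threshold of 0.05. Standard errors come from the F statistic. Levels of members are described without a test. Intervals and floors cover counting error only. GENCODE release 29, a different build, gave composition (97.2% of tested genes) and gene order, with NEFL matched by symbol. The second row named TUBB3 was left out. Promoters are from RefSeq, which matched 3 of 8 members. Named genes were the members, TRDMT1, REST, all tested filament and NELL/ROBO genes, neighbours, closest profiles, and per list the 3 calls with the smallest p in each direction at 1 RPKM or more. Other genes are named after their values were seen. Some genes that the rule names are not reported here. The members and lists were chosen with earlier results of these data known. Alternatives were DESeq2 1.42.0, limma-trend (limma 3.58.1) on log2(RPKM + 1) and log2(RPKM + 0.1), other scalings and filters, a replicate block, removal of composition and length trends (splines of 5 degrees of freedom), and leaving out each library.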

Additional observations from a re-analysis of the deposited data

How the results depend on the processing

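The 26 named calls in the neuronal lists kept their direction under every alternative run, and 26 were still called with RLE factors, with at least 10 counts in every library of 1 group and with DESeq2, 23 with no filter, 19 on the plain library total, 17 and 16 with limma-trend on log2(RPKM + 1) and log2(RPKM + 0.1), 20 with composition trends removed, 21 with the replicate block, 16 without control replicate 1, and 12 or 13 without 1 library labelled knockdown. The count of neuronal list genes called, 39, was 59 with DESeq2 (35 higher, 24 lower), 24 with limma-trend on log2(RPKM + 1) (16 higher, 8 lower) and 22 on log2(RPKM + 0.1) (14 higher, 8 lower). It ran from 12 to 94 when 1 library was left out, the highest without control replicate 2, and 55 without control replicate 3. The count over all genes, 4267 (1654 higher, 2613 lower), ran from 1191 to 9063 when 1 library was left out, the highest again without control replicate 2, and was 1890 higher and 1651 lower on the plain library total and 1800 higher and 1289 lower with limma-trend. Members without overlap numbered 4 to 6 throughout, and nothing is read from this count. The 6 came without control replicate 2, where a smaller group makes non-overlap easier for every gene. After TMM scaling of all libraries, 49.9% of all genes tested had groups that did not overlap. That share was not counted with 1 library left out.

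The replicate numbers did not pair the libraries: deviations of same-numbered libraries correlated at −0.04, 0.06 and 0.001, and not every library correlated best with its own number. With a replicate block 2976 genes were called, 33 of them in the neuronal lists. Depth limits STMN2, and the knockdown side of TACR3.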
